A study of Mus musculus with 6 samples.

Results

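Slit ligands and Robo receptors are a family of guidance genes, and all 7 mouse members (Slit1, Slit2, Slit3, Robo1, Robo2, Robo3 and Robo4) were measured among 19938 genes in the embryonic lower jaw arch. A member was taken as a probe set whose platform annotation gives 1 gene symbol, and each of the 7 genes had 1 such probe set. The tissue was the lower, mandibular portion of pharyngeal arch 1 at embryonic day 9.5 from C57BL/6 mice, and the comparison asks which of its transcripts depend on Tbx1, a T-box transcription factor gene of the pharyngeal apparatus. Embryos that lacked both copies of the gene (Tbx1-/-, called Tbx1 null, 3 arrays) were set against wild-type embryos (Tbx1+/+, 3 arrays). RNA was limiting, so arches from 3 embryos of a genotype were combined, and the labels name no other allele or treatment. Values are normalised log2 array signals per probe set, and 1 unit is a doubling. Genotypes were compared with limma, a linear model fitted to every gene, and p-values were adjusted over all genes by Benjamini-Hochberg with a threshold of 0.05.

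Slits are large secreted proteins that bind Robo receptors on the surface of axons, migrating cells and vessel cells. Binding recruits adaptor proteins to the receptor's inner tail, which changes the actin skeleton and usually repels the growth cone or the cell. Heparan sulfate on the cell surface helps to hold ligand and receptor together. In the head and pharynx of the embryo, Slits and Robos are known for steering cranial axons and neural crest cells and for roles in the forming heart and vessels. Slit2 and Slit3 also carry, inside their transcription units, the genes of the microRNA miR-218, which is known to target Robo1 and Robo2 transcripts.

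The family's question in these arrays was how the ligands and receptors lay beside each other. Slit1 was much lower in Tbx1 null arches, while the log2 changes of the other 6 members lay between -0.018 and 0.22. Of these 6, 5 were above 0 and 1 below, where 9269 and 10669 of all genes were. Their median was 0.13, against -0.01 over all genes, and a small shared shift was not tested. The family was chosen for description with the decrease of Slit1 already known, so its values are given without a test, and nothing is read from its being 1 of 7 genes past that threshold by limma, where 0.16% of all genes passed. The other 6 genes were taken by name, and their p-values come from the fit over all 19938 genes. None of these 6 passed in that limma fit, and 1 of them, Slit3, was under an unadjusted p of 0.05, which 9.44% of all genes were.

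**Figure D1:**
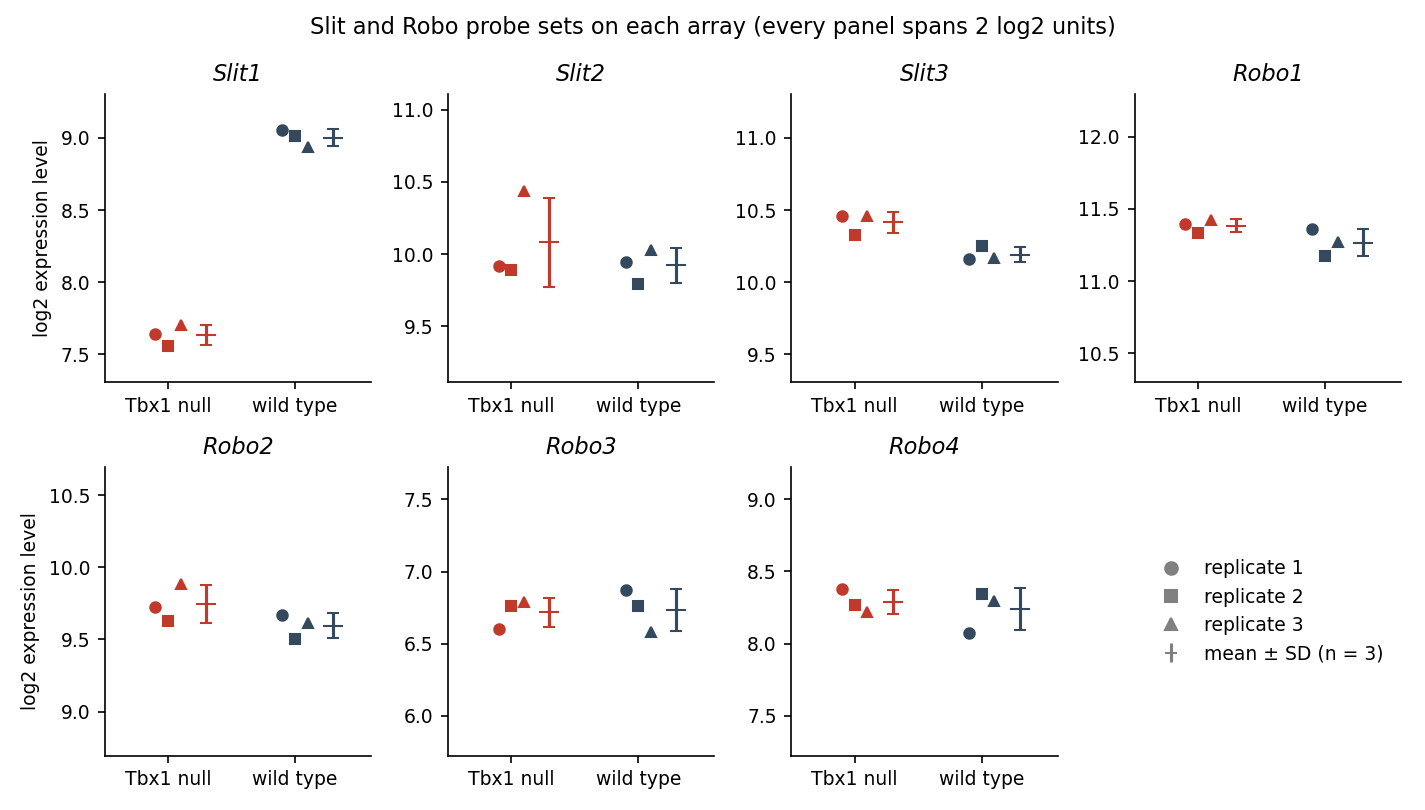
Log2 expression level (vertical axis) of each Slit and Robo probe set on the 3 Tbx1 null arrays (red, left) and the 3 wild-type arrays (blue, right), with the mean and SD beside the points; every panel spans the same height. The Slit1 panel shows Tbx1 null arrays between 7.56 and 7.70 and wild-type arrays between 8.94 and 9.06, while the other panels show small shifts.

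Slit1 is a ligand known mainly from the developing nervous system, where it repels axons. Its probe set (10467599, Entrez gene 20562) read 7.64, 7.56 and 7.70 on Tbx1 null replicates 1, 2 and 3, against 9.06, 9.01 and 8.94 on wild-type replicates 1, 2 and 3, in log2 units. The arrays of a genotype lay close together and the genotypes were far apart. The mean level was 7.635 ± 0.071 in Tbx1 null and 9.002 ± 0.060 in wild type (SD, n = 3 each). The log2 change was -1.37 (95% confidence interval -1.50 to -1.24), which is 2.58-fold lower (2.36 to 2.82) and leaves 38.8% of the wild-type signal. By absolute size this was the change of rank 4 among all genes tested. The interval makes no allowance for the choice of Slit1 with its decrease known, so it is not read as a test. The values are normalised array signals, so a remaining signal of dim probes can include background, and no background probes were given to judge it. The mean level of a gene on this array had a median of 8.55 and a first quartile of 6.81, so the Tbx1 null signal of Slit1 lay in the dimmer part of the range. In a dissected tissue, fewer cells that carry a transcript and less transcript per cell cannot be told apart.

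Slit2 is the most widely studied ligand of the family. Its protein is cut into a part that binds Robo and a part that binds plexin A1. Slit2 read 9.92, 9.89 and 10.44 on the Tbx1 null arrays, against 9.95, 9.79 and 10.03 on the wild-type arrays. The genotypes overlapped, and the spread in Tbx1 null came from replicate 3, the highest of all 6 arrays. The log2 change was 0.16 (interval -0.17 to 0.49, limma adjusted p = 0.805 over all genes). Without Tbx1 null replicate 3 it was -0.018. That array also had the lowest level of Y-linked genes (Kdm5d, Eif2s3y and Uty, mean log2 level 5.73, against 9.58 and 9.28 on the other Tbx1 null arrays and 8.57 to 9.85 in wild type), so the arrays did not all carry the same mixture of embryos. The part of embryo sex in the Slit2 value was not tested.

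Slit3 is the third ligand, known from diaphragm and heart development. It read 10.46, 10.33 and 10.46 on the Tbx1 null arrays, against 10.16, 10.25 and 10.16 on the wild-type arrays. All Tbx1 null arrays were above all wild-type arrays, an absence of overlap that 15.4% of all genes showed in one direction or the other and 8.36% showed with Tbx1 null higher. The log2 change was 0.22 (interval 0.10 to 0.35), or 1.17-fold, with a limma adjusted p = 0.221 over all genes. Changes of larger absolute size were found in 4.05% of genes, so the value of Slit3 did not stand clear of the rest of the array. The difference between the ligands was not tested, since Slit1 had been chosen for its decrease.

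**Figure D2:**
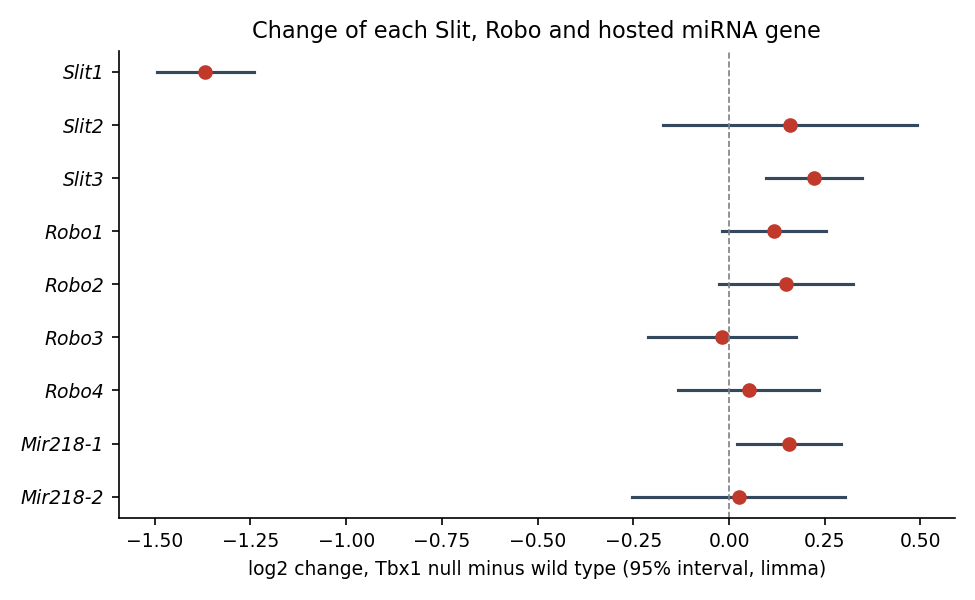
Log2 change, Tbx1 null minus wild type (horizontal axis), of each Slit and Robo gene and of the miR-218 genes that lie within Slit2 and Slit3, with limma's 95% confidence interval as a line. The Slit1 interval runs from -1.50 to -1.24, and every other interval lies between -0.25 and 0.49. That of Slit1 makes no allowance for the choice of the gene with its decrease known.

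Robo1 and Robo2 are the main Slit receptors of neurons, neural crest and mesenchyme. Robo1 read 11.40, 11.33 and 11.43 on the Tbx1 null arrays, against 11.36, 11.17 and 11.27 on the wild-type arrays. The arrays overlapped, with wild-type replicate 1 above Tbx1 null replicate 2. The log2 change of Robo1 was 0.12 (interval -0.02 to 0.25, limma adjusted p = 0.604). Robo2 read 9.72, 9.63 and 9.89 on the Tbx1 null arrays, against 9.67, 9.504 and 9.62 on the wild-type arrays. Here too the genotypes overlapped and Tbx1 null replicate 3 was highest, as it was for Slit2 and Robo1. The log2 change of Robo2 was 0.15 (interval -0.03 to 0.32, limma adjusted p = 0.614). It was 0.08 without Tbx1 null replicate 3.

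Robo3 is the divergent receptor that lets commissural axons cross the midline. In mammals it answers to NELL2 and binds Slits poorly. Robo3 read 6.61, 6.76 and 6.79 on the Tbx1 null arrays, against 6.87, 6.76 and 6.58 on the wild-type arrays. The arrays were interleaved and all lay near the first quartile of gene levels, where a change can be understated. The log2 change was -0.018 (interval -0.21 to 0.18, limma adjusted p = 0.969), and it was 0.0076 after another quantile normalisation.

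Robo4 is the receptor of endothelial cells, the lining of vessels. It read 8.38, 8.27 and 8.22 on the Tbx1 null arrays, against 8.07, 8.34 and 8.30 on the wild-type arrays. The genotypes overlapped, and the lowest array was wild-type replicate 1. The log2 change was 0.05 (interval -0.13 to 0.24, limma adjusted p = 0.899), and it was -0.032 without wild-type replicate 1. Of 12 endothelial markers measured, 0 passed by limma (0 at an unadjusted p under 0.05), with a median log2 change of -0.04. Their mean log2 level was 10.45 to 10.63 on Tbx1 null arrays, against 10.56 to 10.58 on wild-type arrays. Cdh5, the cadherin of endothelial junctions, had a change of -0.03, and the endothelial sialomucin Emcn of -0.04.

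**Figure D3:**
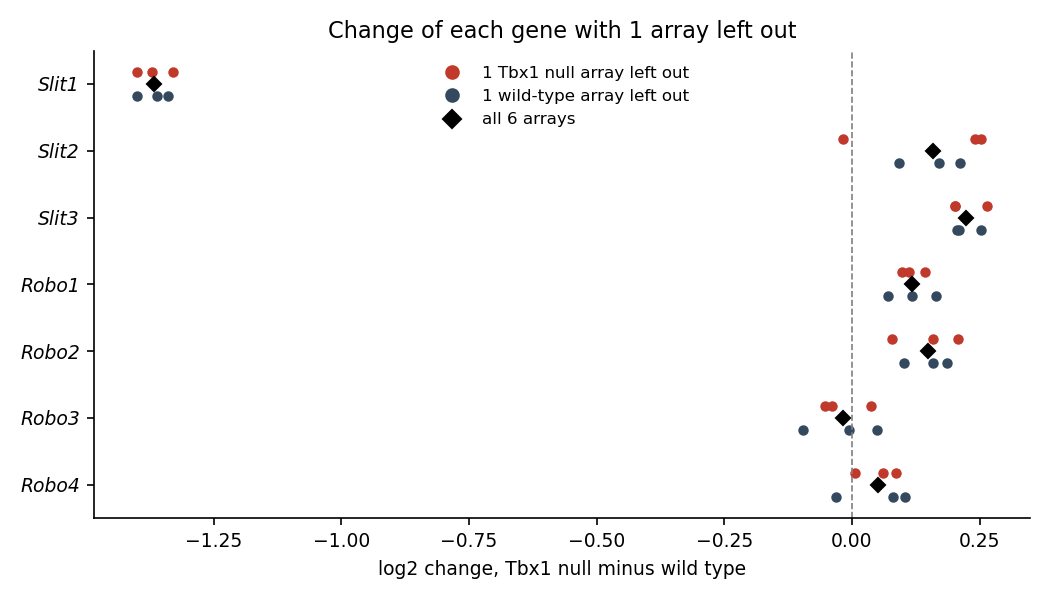
Log2 change, Tbx1 null minus wild type (horizontal axis), of each gene from all 6 arrays (black diamonds) and with 1 Tbx1 null array (red) or 1 wild-type array (blue) left out. Slit1 stays between -1.40 and -1.33, and the change of Slit2 is -0.018 without Tbx1 null replicate 3.

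The miR-218 genes are shown because they tie the ligand loci to the receptors: both encode the same mature microRNA, and each lies within a Slit gene on the same strand. The sequences are from RefSeq (GRCm38.p6). Mir218-1 lies at chr5:48223942-48224051, plus strand, within Slit2, and Mir218-2 at chr11:35616816-35616925, plus strand, within Slit3. In the hairpins, capitals mark mature miR-218-5p. In the mature arms, capitals mark the seed (bases 2 to 8).
Mir218-1 hairpin: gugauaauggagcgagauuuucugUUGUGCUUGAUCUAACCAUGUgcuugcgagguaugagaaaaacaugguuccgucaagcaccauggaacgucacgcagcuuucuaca
Mir218-2 hairpin: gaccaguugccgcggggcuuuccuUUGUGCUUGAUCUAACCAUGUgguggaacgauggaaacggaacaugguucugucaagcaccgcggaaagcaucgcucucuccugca
miR-218-5p (both genes): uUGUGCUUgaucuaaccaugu
miR-218-1-3p: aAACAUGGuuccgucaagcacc
miR-218-2-3p: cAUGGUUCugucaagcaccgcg
The 5p arms share 1 seed, while the 3p arms have different seeds. Set side by side without gaps, the hairpins have the same base at 71 of 110 positions.

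The Mir218-1 probe set (10521796) read 6.67, 6.65 and 6.76 on the Tbx1 null arrays, against 6.55, 6.62 and 6.45 on the wild-type arrays. All Tbx1 null arrays were above the wild-type arrays by a small margin. The log2 change was 0.16 (interval 0.02 to 0.29, limma adjusted p = 0.437). The Mir218-2 probe set (10375214) read 6.52, 6.59 and 6.19 on the Tbx1 null arrays, against 6.30, 6.61 and 6.32 on the wild-type arrays. Its arrays overlapped, with a log2 change of 0.02 (interval -0.25 to 0.30, limma adjusted p = 0.971). Both probe sets were dim, below the first quartile of gene levels. The sources used here do not say whether they read the mature microRNA, its precursor or the host transcript.

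RefSeq promoter windows, which run from 250 bases before to 50 after a gene's start, were read for 6 of the 7 family members (Slit2, Slit3 and Robo1 to Robo4), 8 windows in all. No Slit1 window was analysed here. The letters AGGTGTGA, the core element that T-box factors are known to bind, or their reverse complement TCACACCT, were in 0 of these 8 windows and in 1.28% of 32851 windows of all genes. The shorter form GGTGTGA or TCACACC was in 0 of the 8 windows and in 3.98% of all. With 8 windows and shares this low, finding none was likely for any genes, so nothing is read from it about the members. The result also says nothing of Slit1 or of binding elsewhere.

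Genes beside the members in the RefSeq gene table were read to see whether a change spread along the chromosome. The genes nearest to Slit1 were Lcor and Arhgap19. Lcor had a mean log2 level of 9.996 ± 0.070 in Tbx1 null and 9.888 ± 0.059 in wild type (SD, n = 3 each; log2 change 0.11, limma adjusted p = 0.612). Arhgap19 had a log2 change of -0.019 (adjusted p = 0.930). Neither moved with Slit1. Lcorl and Pacrgl beside Slit2 had log2 changes of 0.06 and 0.05, and Spdl1 and Pank3 beside Slit3 of -0.019 and 0.18. Robo1 and Robo2 neighbour each other, and so do Robo3 and Robo4. On their outer sides, Gbe1 (beside Robo1) had a change of -0.11, Lipi (beside Robo2) of -0.03, Msantd2 (beside Robo3) of 0.03 and Hepacam (beside Robo4) of -0.09. None of these flanking genes passed by limma over all genes. Pank3, higher as Slit3 was, had an unadjusted limma p of 0.0144, and 9.44% of all genes were under 0.05. The genotypes did not overlap for Pank3, nor for Gbe1 and Hepacam, which were lower, where 15.4% of all genes showed no overlap. A change shared by Pank3 and Slit3 was not tested.

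Other genes of the pathway were grouped by role in lists chosen with earlier results of these data known. Of 61 genes listed, 59 were measured and 0 passed a limma adjusted p of 0.05, where 0.16% of all genes passed. At an unadjusted limma p under 0.05, 4 were higher and 2 lower in Tbx1 null, or 10.2% of the 59 against 9.44% of all genes (5.5% higher and 3.94% lower). Their median log2 change was 0.02, against -0.01 over all genes. In 9 of the 59 (15.3%) the arrays of the genotypes did not overlap, against 15.4% of all genes. The pathway as listed was thus close to the rest of the array.

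Among 14 ligands and partners outside the family, 1 was higher and 2 were lower at an unadjusted p under 0.05, with a median log2 change of 0.02. Unc5b, a netrin receptor that also binds Robo4 in vessels, read 11.09, 11.14 and 11.27 on the Tbx1 null arrays, against 10.84, 10.59 and 10.67 on the wild-type arrays. Its groups did not overlap, and its log2 change of 0.46 had a limma adjusted p = 0.0845, short of the threshold. It passed with trended, robust variances (adjusted p = 0.0200) and with array weights (adjusted p = 0.0106). Those settings called 96 and 334 of all genes, against 32 in the fit used elsewhere. Cxcl12, a chemokine whose signal through Cxcr4 is known to be dampened by Slit, read 9.94, 9.83 and 10.22 on the Tbx1 null arrays, against 10.30, 10.35 and 10.53 on the wild-type arrays. All its Tbx1 null arrays were below its wild-type arrays, with a log2 change of -0.40 (adjusted p = 0.258, and 0.0383 with array weights). The neural cadherin Cdh2, which Robo1 can bind, had a change of -0.13 (adjusted p = 0.519). Dcc, the netrin receptor that Robo1 silences in axons, had a change of -0.17, and Nell2, the ligand of Robo3, of 0.33. Nell2 read 8.75 on wild-type replicate 1, against 9.35 to 9.75 on the other 5 arrays, which made it the lowest.

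Of 13 measured genes of heparan sulfate proteoglycans and their synthesis, 0 passed, and 1 was under an unadjusted limma p of 0.05. This was Ext1, a polymerase of the sugar chain, with a mean log2 level of 10.97 ± 0.05 in Tbx1 null and 10.83 ± 0.01 in wild type (SD, n = 3 each; log2 change 0.14, adjusted p = 0.350). The cell-surface proteoglycans Sdc1 and Sdc3 had changes of -0.07 and -0.09. Among 5 genes of receptor trafficking and cleavage the changes ran from -0.01 to 0.11, with 0 under an unadjusted p of 0.05. They include Adam10, the protease that sheds Robo1 (0.03), Ndfip1, an adaptor of ubiquitin ligases (0.03), and the transmembrane protein gene Prrg4 (0.11).

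Of 25 measured intracellular effectors 0 passed, and the changes ran from -0.12 to 0.25. Srgap1, whose protein binds the tail of Robo1, read 9.93, 9.97 and 10.02 on the Tbx1 null arrays, against 9.82, 9.83 and 9.87 on the wild-type arrays. These groups did not overlap, with a log2 change of 0.13 (limma adjusted p = 0.421). Vasp, which helps actin filaments to grow, had a change of -0.12, and the adaptor Nck2 of 0.11. Ndst1 and Pak1 are not analysed here, as they had no probe set with 1 symbol.

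**Figure D4:**
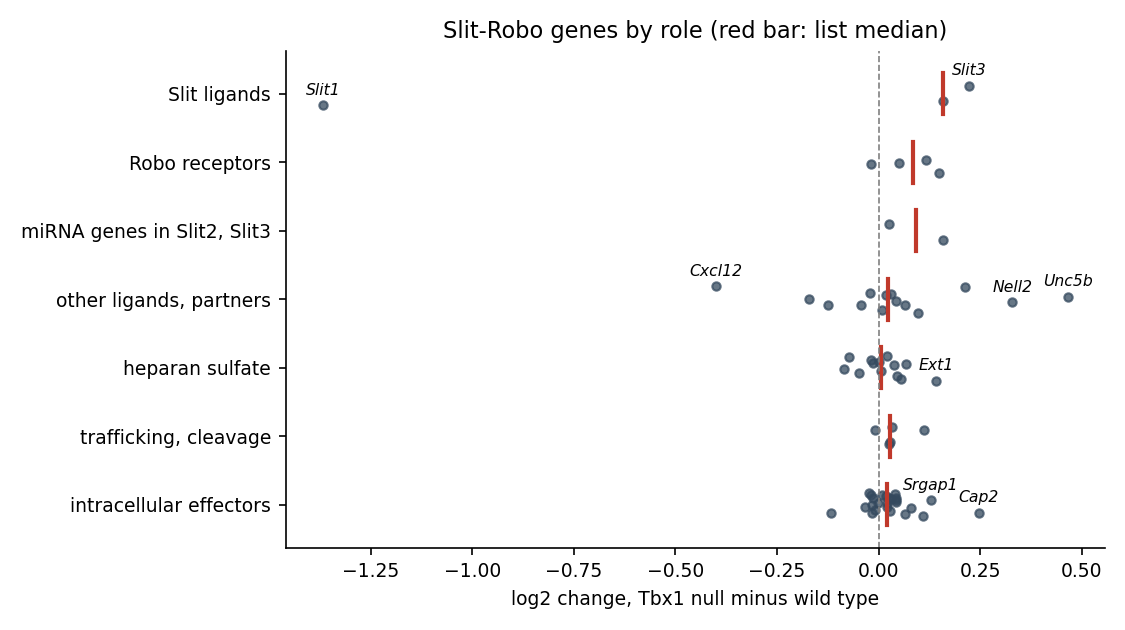
Log2 change, Tbx1 null minus wild type (horizontal axis), of every measured gene of the family and of the pathway lists, 1 point a gene, with the list median as a red bar. Slit1 stands at -1.37, and the 59 genes outside the family lie between -0.40 and 0.46.

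To place the Slit1 profile, each gene's 6 log2 values were taken relative to their mean, and genes were ranked by the root mean square difference from Slit1. The 5 nearest were Lhx2 (0.14), Lrrn1 (0.29), Smoc1 (0.29), Tbx1 (0.30) and Dmrta1 (0.30), against a median of 0.69 over all genes. As Slit1 had a large genotype difference, genes near it by this measure must also have one, and no test is given. Lhx2, a LIM-homeodomain factor of the arch's core mesoderm, read 8.37, 8.10 and 8.31 on the Tbx1 null arrays, against 9.72, 9.94 and 9.82 on the wild-type arrays. Lrrn1, a leucine-rich repeat membrane protein gene, read 8.22, 7.94 and 8.20 on the Tbx1 null arrays, against 8.77, 9.42 and 9.43 on the wild-type arrays. Its wild-type replicate 1 lay well below the others, which was not so for Slit1. Smoc1, a secreted matrix-associated protein gene, had a log2 change of -0.91, and Dmrta1, a DM-domain factor gene, of -0.96. Tbx1 itself read 9.48, 9.39 and 9.63 on the Tbx1 null arrays, against 11.64, 11.36 and 11.31 on the wild-type arrays, a log2 change of -1.94. The genotype labels are thus borne out on every array, although the deleted part of Tbx1 is not stated in the labels.

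**Figure D5:**
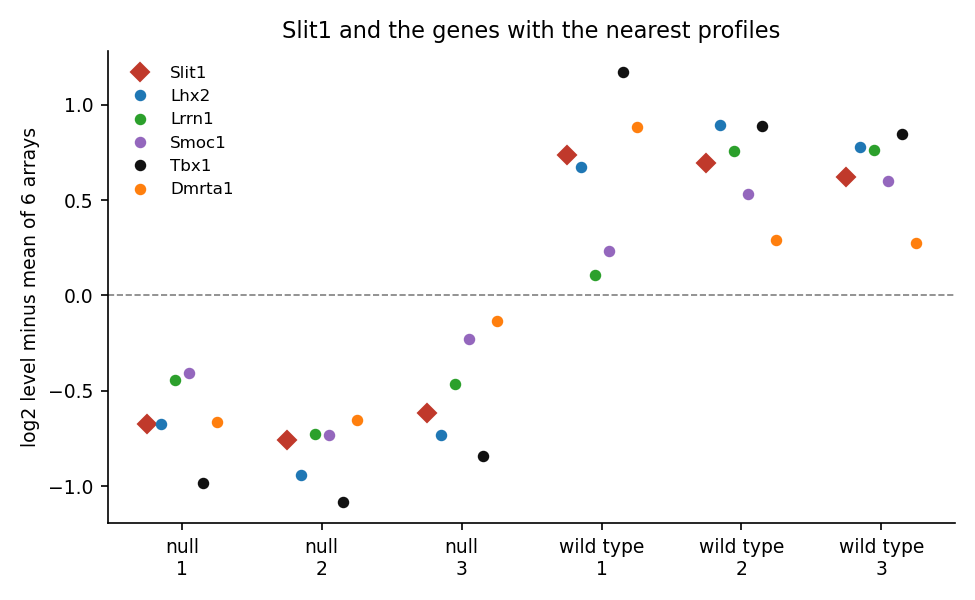
Log2 level minus the gene's mean over 6 arrays (vertical axis) for Slit1 (red diamonds) and the 5 genes of nearest profile, on each Tbx1 null array (left) and wild-type array (right). Lhx2 lies nearest to Slit1, and Tbx1 has a wider gap between the genotypes.

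Marker lists were read for the arch tissue and for other cell types. No other tissue was on these arrays, so the level of a list cannot show which part of the arch was taken. All 15 genes of mandibular arch identity were measured, with mean log2 levels of 11.34 to 11.45 on Tbx1 null arrays, against 11.12 to 11.31 on wild-type arrays, well above the median gene, and 1 of them, Msx2, passed the limma threshold as higher. At an unadjusted p under 0.05, 7 of the 15 were higher and 1, Gsc, lower, where 5.5% and 3.94% of all genes were. Normalised values are never 0, so absence of a marker cannot be read from them. Of 8 genes that mark the second arch and hindbrain, the neighbours of this tissue, 6 were measured, with 0 called by limma and 2 higher at an unadjusted p under 0.05. These were Hoxa2 (log2 change 1.11, adjusted p = 0.126) and Hoxb2 (0.63, adjusted p = 0.0577), and the list's mean log2 level was 7.83 to 7.95 on Tbx1 null arrays, against 7.53 to 7.58 on wild-type arrays. Of 10 epithelial markers, 0 were called and 4 were higher at an unadjusted limma p under 0.05, with levels of 10.89 to 10.99 on Tbx1 null arrays, against 10.74 to 10.82 on wild-type arrays. Of 6 myeloid markers 0 were called and 0 were under an unadjusted limma p of 0.05. The core mesoderm and myogenic list had 10 of 11 markers measured and 2 called, both lower: Lhx2 and Tbx1, the deleted gene. Its mean log2 level was 9.11 to 9.27 on Tbx1 null arrays, against 9.66 to 9.76 on wild-type arrays. Without Lhx2 and Tbx1 it was 9.20 to 9.35 on Tbx1 null arrays, against 9.42 to 9.53 on wild-type arrays. Of the 10, 6 were lower and 2 higher at an unadjusted limma p under 0.05. Besides Lhx2 and Tbx1, the lower ones were Myf5 (log2 change -0.66, limma adjusted p = 0.0509), Ebf2 (-0.54), Tcf21 (-0.53) and Ebf1 (-0.34). The higher ones, Isl1 and Ebf3, had log2 changes of 0.36 and 0.32, with all Tbx1 null arrays above the wild-type arrays (limma adjusted p = 0.279 and 0.439). Of the crest and glial markers (7 of 9 measured), 1 was called by limma (Ngfr, lower). At an unadjusted limma p under 0.05, 0 were higher and 2 lower, Ngfr and Sox10. Sox10 had a log2 change of -0.85 (limma adjusted p = 0.435), and its genotypes did not overlap. Of the 7, 5 were below 0 and 2 above. The mean log2 level of this list was 9.09 to 9.26 on Tbx1 null arrays, against 9.22 to 9.83 on wild-type arrays. That of neuron markers (13 of 14 measured, 0 called by limma, 1 higher and 2 lower at unadjusted p under 0.05) was 7.29 to 7.40 on Tbx1 null arrays, against 7.33 to 7.55 on wild-type arrays. Of 9 heart markers, all measured, 1 was called by limma (Tbx20, higher), with 6 higher and 0 lower at unadjusted p under 0.05. Their median log2 change was 0.62. Actc1 among them changed by 1.40 (limma adjusted p = 0.163), which was rank 3 by absolute size among all genes. The mean log2 level of heart markers was 9.03 to 9.61 on Tbx1 null arrays, against 8.63 to 8.92 on wild-type arrays. That of erythroid markers (8 of 9 measured, 0 called by limma, 0 higher and 8 lower at unadjusted p under 0.05) was 10.30 to 10.35 on Tbx1 null arrays, against 10.59 to 10.67 on wild-type arrays. The part of any of these cell types, or of neighbouring tissue, in the Slit1 value was not tested.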

How the data were processed

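Per the submitters' processing notes, the authors used RMA and Affymetrix Expression Console 1.1 for the Affymetrix Mouse Gene ST 1.0 arrays. Each probe set's deposited value is taken as log2, from its range. The sources used here give no summary level, filter or build. RMA aligns the arrays' distributions, so a shift shared by most genes is hidden. The array medians ran from 7.98 to 8.04. Arrays have no read depth, and their number limits precision (median SE of a log2 change 0.0579).

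Of 35556 probe sets, 21789 had 1 symbol in the platform annotation, and the one of highest mean stood for each of 19938 genes. The test was limma 3.58.1 (R 4.3.3; lmFit, eBayes; two-sided), adjusted by Benjamini-Hochberg over all genes, with a threshold of 0.05. On simulated data of 19938 genes this fit recovered 25 of 50 genes changed 1.25-fold and 43 of 50 changed 1.5-fold. That simulation gave 174 calls, against 32 on the real arrays, so its cut-off was looser and recovery on the arrays can be lower. The smallest absolute log2 change called on the arrays was 0.37. The labels do not say that arrays carried separate pools. By the Y-linked levels not all arrays carried the same mixture of embryos, but a separate pool for every array is not shown. The p-values thus reflect only the spread among these arrays, part of which may be technical.

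The members and lists were chosen with earlier results of these data known. Genes named were the family, Tbx1, the miR-218 genes, flanking genes, up to 3 of lowest p per pathway list and the 5 profiles nearest to Slit1. The 3 brightest per marker list were also taken (not all printed). Chosen after their values were seen were Dcc, Nell2, Ngfr, Sox10, Tbx20, Gsc, Hoxa2, Isl1, Myf5, Tcf21, Ebf1 and the Y-linked genes. Alternatives were a replicate block, leaving out each array, quantile normalisation, median centring, a filter on dim genes, trended robust variances, array weights and averaging probe sets.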

Additional observations from a re-analysis of the deposited data

How the results depend on the processing

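The log2 change of Slit1 ran from -1.40 to -1.33 in the 12 alternatives that measured it. With genes above the median level it was left out as dim, so 0 family members were called there, against 1 otherwise. The remaining members passed in no alternative. With 1 array left out the change of Slit2 ran from -0.018 to 0.25, of Robo3 from -0.096 to 0.049, of Robo4 from -0.032 to 0.10 and of Mir218-2 from -0.054 to 0.15. Slit2 reversed without Tbx1 null replicate 3 (-0.018), Robo4 without wild-type replicate 1 (-0.032), and Robo3 without Tbx1 null replicate 1 (0.038) or wild-type replicate 1 (0.049) and after quantile normalisation (0.0076). Mir218-2 reversed with array weights (-0.029) and without Tbx1 null replicate 1 (-0.018) or 2 (-0.054) or wild-type replicate 1 (-0.029) or 3 (-0.019). The causes were not tested. Of the pathway genes 0 were called by limma except with trended, robust variances (1, Unc5b) and array weights (2, Unc5b and Cxcl12). The count over all genes, 32, became 3 to 20 with 1 array left out (fewer samples), 96 with trended, robust variances and 334 with array weights. Same-numbered arrays deviated with correlations of -0.05, 0.26 and 0.15. With so few arrays these values cannot show whether same-numbered arrays shared more than a number. With the replicate block 6 genes were called over all genes. At an unadjusted limma p under 0.05 there were 2184 genes with the block and 1883 without it.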

Other observations

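Within each genotype the arrays ranked alike for Slit1 and Tbx1: Tbx1 null replicate 3 was highest and replicate 2 lowest for both genes, and wild-type replicate 1 was highest and replicate 3 lowest. Of the other 19937 genes, 616 (3.09%) shared this order with Tbx1 in both genotypes, and no other Slit or Robo gene did. The order was noticed after the values were seen, and Lhx2, the nearest profile to Slit1, did not share it.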
